A study of Mus musculus with 13 samples.

Results

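The binding of STAG1 in quiescent and in proliferating cells was examined, which uses 4 of the 12 libraries with a peak list in a series of 13 samples. The libraries were chosen by antibody and growth state, as their labels give them. All come from wild-type NU1 cells, a line of normal mouse urothelial cells that immortalised itself during passaging, so every value below describes a single cell line. The assay was chromatin immunoprecipitation followed by sequencing (ChIP-seq), with 25 ug of antibody on 550 ug of chromatin. The 2 quiescent libraries came from confluent cells kept in medium with 1 uM rosiglitazone, a PPAR gamma agonist, and with 0.5 uM erlotinib, an inhibitor of the EGF receptor kinase. The 2 proliferating libraries came from the same line in growth medium, without these agents. Quiescence here therefore joins confluence with both agents, and their parts cannot be told apart. STAG2 and CTCF libraries, 2 in each state, served as readouts that did not choose the STAG1 sites.

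Cohesin is a ring of SMC1A, SMC3 and RAD21 that entraps DNA, holds sister chromatids together and extrudes loops. A STAG protein, STAG1 or STAG2, completes the ring and contacts DNA and CTCF. CTCF is a zinc finger protein bound to a long sequence motif, at which loop extrusion by cohesin halts, and cohesin sites therefore often coincide with CTCF. Cohesin is also found at active gene starts without CTCF. In quiescent cells the DREAM complex represses cell cycle genes, many of the G2/M ones through a short element, the cell cycle genes homology region, which its MuvB subunit LIN54 contacts.

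A site was a set of STAG1 peaks of any of the 4 libraries that shared at least 1 bp in a chain. Sites are called lost where both proliferating libraries and no quiescent one had them, gained where both quiescent libraries and no proliferating one had them, and kept where all 4 did. The promoters below are RefSeq sequences of build GRCm38.p6, each from 250 bases before to 50 after a gene start, and were chosen after the values were seen. They are single examples and do not stand for the promoters of their class. Capitals mark a motif match on either strand, either TTTGAA or TTCGAA, the cell cycle genes homology region, or CCNNNAGNNGGC, a core of the CTCF motif. TTCGAA reads the same on both strands and was counted once, and no match of the 2 motifs overlapped in these promoters. Of 21263 promoters of protein-coding genes, 17.6% hold the first motif and 9.88% the second.

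The first 3 belong to G2/M genes with a lost site. Ccnb2 encodes cyclin B2 and lies at chr9:70421505-70421804 on the minus strand, Top2a encodes DNA topoisomerase II alpha and lies at chr11:99024140-99024439 on the minus strand, and Plk1 encodes polo-like kinase 1 and lies at chr7:122159185-122159484 on the plus strand.
Ccnb2: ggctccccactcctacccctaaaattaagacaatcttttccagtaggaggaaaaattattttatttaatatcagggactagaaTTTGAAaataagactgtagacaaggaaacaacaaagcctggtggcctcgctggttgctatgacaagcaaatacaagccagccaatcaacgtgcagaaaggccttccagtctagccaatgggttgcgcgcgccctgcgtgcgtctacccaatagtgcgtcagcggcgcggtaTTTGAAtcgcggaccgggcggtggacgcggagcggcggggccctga
Top2a: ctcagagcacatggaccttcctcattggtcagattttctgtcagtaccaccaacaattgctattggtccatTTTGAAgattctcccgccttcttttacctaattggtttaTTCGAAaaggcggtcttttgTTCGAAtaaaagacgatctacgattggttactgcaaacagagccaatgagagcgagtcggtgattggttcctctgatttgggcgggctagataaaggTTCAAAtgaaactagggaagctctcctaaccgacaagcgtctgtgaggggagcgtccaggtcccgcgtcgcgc
Plk1: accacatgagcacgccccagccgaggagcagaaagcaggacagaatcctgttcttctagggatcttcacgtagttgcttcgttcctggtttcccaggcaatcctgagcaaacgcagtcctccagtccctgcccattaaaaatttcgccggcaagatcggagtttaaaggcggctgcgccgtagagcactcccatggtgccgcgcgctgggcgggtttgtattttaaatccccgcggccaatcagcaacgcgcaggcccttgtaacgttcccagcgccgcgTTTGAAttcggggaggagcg
Ccnb2 has 2 homology region matches, Top2a has 4 and Plk1 has 1, and none of the 3 holds a CTCF core. All 4 CTCF libraries nevertheless had a peak at the lost site of Plk1, and none had one at those of Ccnb2 and Top2a. These matches are common to the whole list: 73.8% of 42 promoters of G2/M genes hold the homology region and 0 hold a CTCF core. Of 235 promoters that overlap a lost site, 15.7% hold the homology region, close to the 17.6% of all promoters. Match positions are those of the first base, counted from the gene start. The summits of the lost peaks were not inside the printed windows. They lay 63 and 138 bases after the start at Ccnb2, between 85 and 466 bases after it at Top2a, and between -419 and -344 at Plk1.

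The next 4 are the highest-ranking sites of each class that enclose a whole printed promoter. Kept promoters were limited to those that hold a CTCF core, so its presence there follows from the choice. Csf2, a lost site, encodes the cytokine GM-CSF and lies at chr11:54249850-54250149 on the minus strand. Vstm2a, a gained site, encodes a secreted protein with an immunoglobulin domain and lies at chr11:16257492-16257791 on the plus strand. Scnn1g encodes the gamma subunit of the epithelial sodium channel ENaC and lies at chr7:121734229-121734528, and Irak2 encodes a kinase of interleukin 1 signalling and lies at chr6:113638217-113638516. Both are kept sites on the plus strand.
Csf2: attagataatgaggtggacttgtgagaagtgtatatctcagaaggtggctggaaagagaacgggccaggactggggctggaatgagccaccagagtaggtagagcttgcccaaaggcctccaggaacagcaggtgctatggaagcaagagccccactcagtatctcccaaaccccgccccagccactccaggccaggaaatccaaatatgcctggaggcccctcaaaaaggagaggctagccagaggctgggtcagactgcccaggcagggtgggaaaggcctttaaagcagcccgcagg
Vstm2a: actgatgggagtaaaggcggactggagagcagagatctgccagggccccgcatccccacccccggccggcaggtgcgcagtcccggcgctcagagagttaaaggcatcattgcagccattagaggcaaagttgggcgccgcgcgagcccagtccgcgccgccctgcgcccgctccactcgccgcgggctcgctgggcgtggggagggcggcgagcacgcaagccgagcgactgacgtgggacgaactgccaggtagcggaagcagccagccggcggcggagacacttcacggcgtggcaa
Scnn1g: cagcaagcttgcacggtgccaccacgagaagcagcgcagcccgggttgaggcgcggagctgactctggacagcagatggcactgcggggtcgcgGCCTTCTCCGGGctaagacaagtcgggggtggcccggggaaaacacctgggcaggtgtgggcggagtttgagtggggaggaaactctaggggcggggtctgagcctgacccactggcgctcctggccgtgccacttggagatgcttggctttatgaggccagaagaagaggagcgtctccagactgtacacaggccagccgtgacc
Irak2: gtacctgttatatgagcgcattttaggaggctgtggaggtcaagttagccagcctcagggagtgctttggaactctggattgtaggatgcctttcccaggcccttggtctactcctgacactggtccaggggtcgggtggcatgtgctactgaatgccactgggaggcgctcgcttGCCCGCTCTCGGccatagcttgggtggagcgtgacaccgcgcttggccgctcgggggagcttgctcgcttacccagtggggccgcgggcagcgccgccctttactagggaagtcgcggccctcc
Neither motif was found in these letters at Csf2 or Vstm2a. The CTCF core starts at -156 in Scnn1g, where the summits lay between -233 and -184, and at -74 in Irak2, where they lay between -57 and -16. All 4 CTCF libraries had a peak at both kept sites and at Vstm2a, and at Csf2 both proliferating and no quiescent one had.

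The quiescent STAG1 libraries held 35594 and 36680 peaks and the proliferating ones 38857 and 50468. The second proliferating library stands apart: it alone called 13022 of the 60878 sites, against 3715 for the first proliferating library and 2406 and 2564 for the quiescent ones. Width, spacing, covered length, the shares of peaks and the counts of sites and genes are therefore also given at equal list lengths, with the lists cut by fold enrichment to the shortest, 35594 peaks, or to 20000. The deposited lists hold no read totals, so sequencing depth is unknown. The fold enrichment of a peak is the authors' value and serves below only to describe and rank peaks within a list. The labels call the replicates biological, but whether they came from separate cultures is not stated, and p-values measure only the spread between these libraries. A missing call does not show that the protein was absent.

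In quiescent cells STAG1 peaks were fewer, lay farther apart and were more often at gene ends, defined as 1 kb to either side of the first or last base of a protein-coding gene. The log2 number of peaks was 15.14 ± 0.03 in quiescent and 15.43 ± 0.27 in proliferating libraries (SD, n = 2 each), a difference of -0.29. Peaks covered 22.6 and 23.7 Mb in quiescent cells, against 24.8 and 33.7 Mb in proliferating cells. Neighbouring summits were 19.2 and 19.7 kb apart at the median in quiescent cells, against 17.97 and 12.78 kb in proliferating cells, a mean difference of 4.10 kb. At gene ends lay 32.9% and 32.4% of quiescent peaks, against 29.6% and 28.7% of proliferating peaks, a difference of 3.54 percentage points. Inside genes, away from the ends, lay 36.1% and 35.8% of quiescent peaks, against 37.3% and 39.6% of proliferating peaks. In each of these measures the states did not overlap. Each had an exact two-sided permutation p of 0.333, the smallest that 6 arrangements of 4 libraries allow, so none can pass 0.05. Without proliferating replicate 2 the differences were -0.10 in log2 peak number, -0.10 in log2 covered length, 1505 bp in spacing, 3.11 points at gene ends and -1.37 points inside genes. Without proliferating replicate 1 they were -0.48, -0.54, 6696 bp, 3.97 points and -3.62 points.

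Peak width overlapped between the states in the lists as deposited. At equal list lengths quiescent peaks were the narrower ones, mostly beside proliferating replicate 2. The median deposited peak was 537 and 543 bp wide in quiescent cells and 545 and 539 bp wide in proliferating cells, a difference of -2 bp (exact permutation p = 0.667, two-sided). At 35594 peaks a list it was 537 and 546 bp wide in quiescent cells, against 556 and 613 bp in proliferating cells, a difference of -43 bp. With lists of 20000 peaks it was 604 and 607 bp, against 608 and 714 bp, a difference of -55.5 bp. At both lengths the states did not overlap, and the exact permutation p was 0.333, the smallest possible. With 20000 peaks, however, quiescent replicate 2 and proliferating replicate 1 were nearly equal, at 607 and 608 bp. The widest medians, 613 and 714 bp, were both of proliferating replicate 2. At kept sites of the deposited lists the median width of the peaks was 588 and 597 bp in quiescent cells and 608 and 680 bp in proliferating cells, with the second proliferating library the widest.

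The differences in covered length, spacing, gene end share and CTCF share were smaller at equal list length, in contrast to width. Lists of 35594 peaks covered 22.6 and 23.1 Mb in quiescent cells, against 23.2 and 27.1 Mb in proliferating cells. With every list at 35594 peaks, the median distance was 19.2 and 20.5 kb in quiescent cells, against 20.3 and 19.5 kb in proliferating cells, and the states overlapped. At that length 32.9% and 32.0% of quiescent peaks lay at gene ends, against 28.6% and 32.9% of proliferating peaks, so the 2 proliferating libraries lay on both sides of quiescent replicate 2. With 20000 peaks the proliferating libraries were farther from each other, 26.6% and 36.7%, than either was from the quiescent 31.5% and 30.9%. The share of peaks at a site of all 4 CTCF libraries was 68.8% and 67.0% in quiescent cells against 66.3% and 52.5% in proliferating cells as deposited. With lists of 35594 peaks it was 68.8% and 67.9% against 69.0% and 67.3%. The deposited difference of 8.45 points was 1.56 points without proliferating replicate 2 and 15.3 points without proliferating replicate 1.

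**Figure D1:**
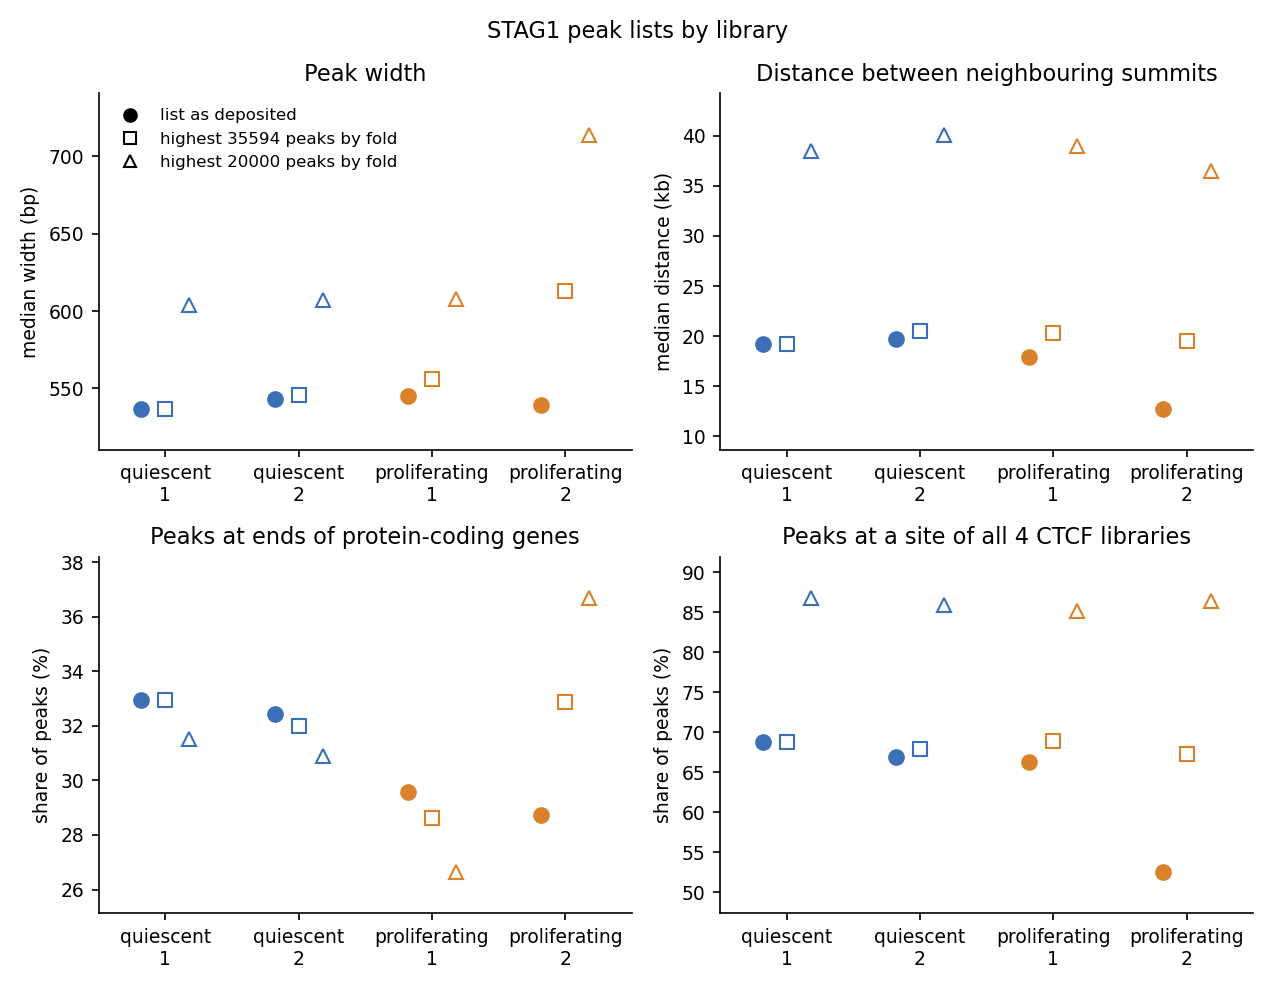
Median peak width (bp), median distance between neighbouring summits (kb), share of peaks at gene ends (%) and share at a site of all 4 CTCF libraries (%) for each STAG1 library, quiescent in blue and proliferating in orange. Filled circles are the lists as deposited, squares the 35594 and triangles the 20000 peaks of highest fold; spacing and the CTCF share draw together at equal length, while the proliferating libraries part in width and gene end share.

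The STAG1 changes were set beside those of STAG2, the alternative subunit. The log2 change in peak number was -0.29 for STAG1 and -0.36 for STAG2, and the difference between the changes was 0.06 (exact permutation p = 0.944, two-sided, 36 arrangements). The change in median spacing was 4.10 kb for STAG1 and 4.84 kb for STAG2, a difference of -0.741 kb (exact permutation p = 1). The gene end share was 3.54 points higher in quiescent cells for STAG1 and 6.41 points higher for STAG2, a difference of -2.87 points (exact permutation p = 0.5). Median width was 2 bp lower for STAG1 (a change of -2 bp) and 18 bp higher for STAG2, a difference of -20 bp (exact permutation p = 0.111). None of the 4 passed, and 0.0556 is the smallest p these arrangements can give, so the test cannot reach 0.05. With all STAG1 and STAG2 lists at 20000 peaks the differences were -6.43 points at gene ends (exact permutation p = 0.278), -43.5 bp in width (exact permutation p = 0.556) and -353 bp in spacing (exact permutation p = 0.833).

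Of the 60878 STAG1 sites, 2507 were lost (4.12%), 365 were gained (0.6%) and 25582 were kept (42.0%). Lost sites were 7.86% of the 31904 sites called in both proliferating libraries, and gained sites 1.3% of the 28121 called in both quiescent libraries. The other sites were called in part of a group. Of the sites called in both proliferating libraries, 3815 were called in exactly 1 quiescent one, more than were lost. The quiescent libraries did not match each other better than they matched the proliferating ones, whose lists are longer. Of the peaks of quiescent replicate 1, 81.7% had a match in quiescent replicate 2, against 82.6% and 88.6% in the proliferating libraries. Of the peaks of quiescent replicate 2, 79.0% had a match in quiescent replicate 1, against 82.0% and 87.7% in the proliferating libraries. Of the peaks of proliferating replicate 1, 75.4% and 77.5% had a match in the quiescent libraries and 85.0% in proliferating replicate 2.

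The excess of lost over gained sites depended on list length. It was 1320 lost to 920 gained sites with lists of 35594 peaks, and 472 lost to 527 gained with lists of 20000. Without proliferating replicate 2 there were 6384 lost and 1925 gained sites, and without proliferating replicate 1 there were 15632 lost and 1038 gained, both higher by construction because fewer libraries must call a site. Of the 2507 lost sites, 1285 (51.3%) were still lost with lists of 35594 peaks and 40 (1.60%) with lists of 20000.

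Lost and gained sites were low-ranking. Their median fold was 5.60 in each proliferating library for lost sites and 5.49 in each quiescent library for gained sites. Peaks at kept sites had median folds of 10.5 and 11.5 in quiescent cells and 12.0 and 13.5 in proliferating cells. Of the sites called in both proliferating libraries, 40.3% of those in the lowest 10% of ranks were lost, against 9.68% of those between the 40th and 50th percentile and 0.0767% between the 70th and 80th. None above the 80th percentile was lost. Gained sites made up 5.41% of the lowest 10% and 1.07% between the 40th and 50th percentile. Lost peaks were also narrow, with medians of 398 and 432 bp in the proliferating libraries, and 16.6% and 11.1% of them had the minimum width of 330 bp.

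**Figure D2:**
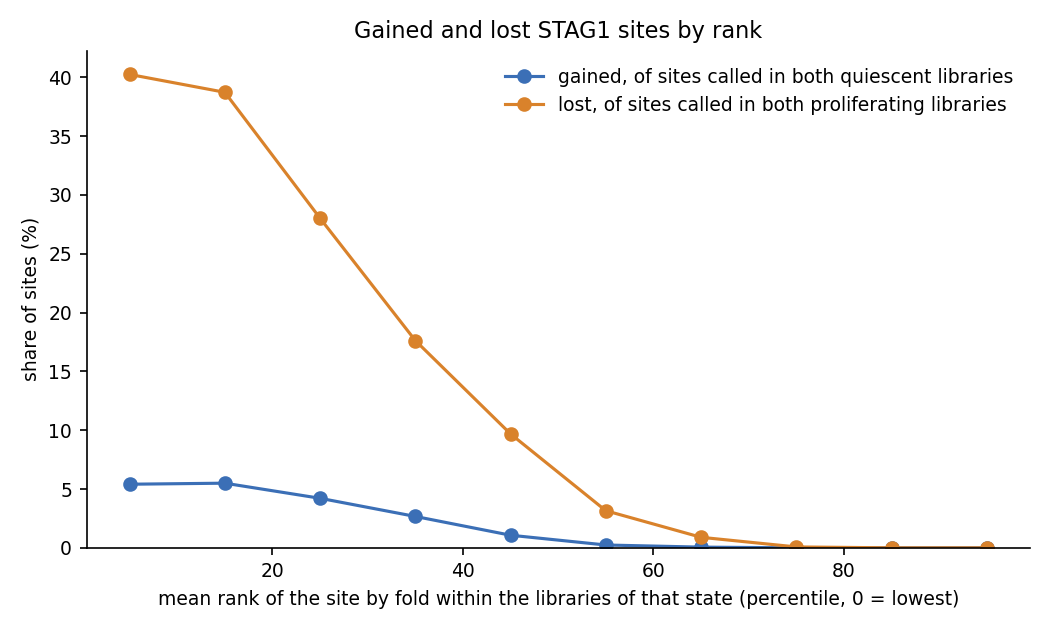
Share of sites (%) that were gained, of those called in both quiescent libraries (blue), or lost, of those called in both proliferating libraries (orange), in steps of 10 percentiles of the mean within-list rank by fold (percentile). In the lowest step the lost share is 40.3% and the gained share 5.41%, and above the 80th percentile both are 0.

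Lost sites were less often at gene ends than kept sites. Of the sites called in both proliferating libraries, 3.39% of those at gene ends were lost, against 10.5% inside genes, 7.88% outside genes within 10 kb and 10.7% farther out. Gained sites followed the same order at the extremes, with 0.555% at gene ends and 2.38% in the far intergenic part. Loss at gene ends was also the lowest without each library in turn and with lists of 35594 peaks, where it was 1.90% against 6.70% inside genes. With lists of 20000 peaks it was 2.75% at gene ends, 3.24% inside genes and 2.35% outside genes within 10 kb, the lowest. Among gained sites the order turned without proliferating replicate 2, where 6.97% were gained at gene ends, 7.28% inside genes and 4.94% within 10 kb. The median distance to the nearest gene start was 29.1 kb for lost, 38.4 kb for gained and 15.0 kb for kept sites.

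Kept sites of the same ranks lay elsewhere. In 7 bins of equal rank, 14.4% of lost sites lay at gene ends, against 48.3% of kept sites weighted to the same ranks, and the lost share was lower in 7 of 7 bins. For gained sites the shares were 15.8% and 48.9%, lower in 5 of 5 bins. Over all ranks, 14.4% of lost, 15.3% of gained and 36.6% of kept sites lay at gene ends. Both shares moved with the settings. With lists of 35594 peaks, 13.3% of lost and 28.4% of gained sites lay there, against 35.8% of kept sites. With lists of 20000 it was 28.6% and 28.1%, against 30.9%. Without proliferating replicate 2 it was 11.0% and 36.5%, against 35.6%. With windows of 100 bp around summits in place of peaks it was 19.2% and 36.9%, against 31.0%. The lost share was below the kept share in each, by least with lists of 20000, and the gained share was not. Ranks are one of the measures behind the site classes, so this is a description without a test. Site widths were not matched: the median was 501 bp for lost, 462 bp for gained and 770 bp for kept sites. An overlap of 1 bp counted, and the part of width in these shares was not tested.

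**Figure D3:**
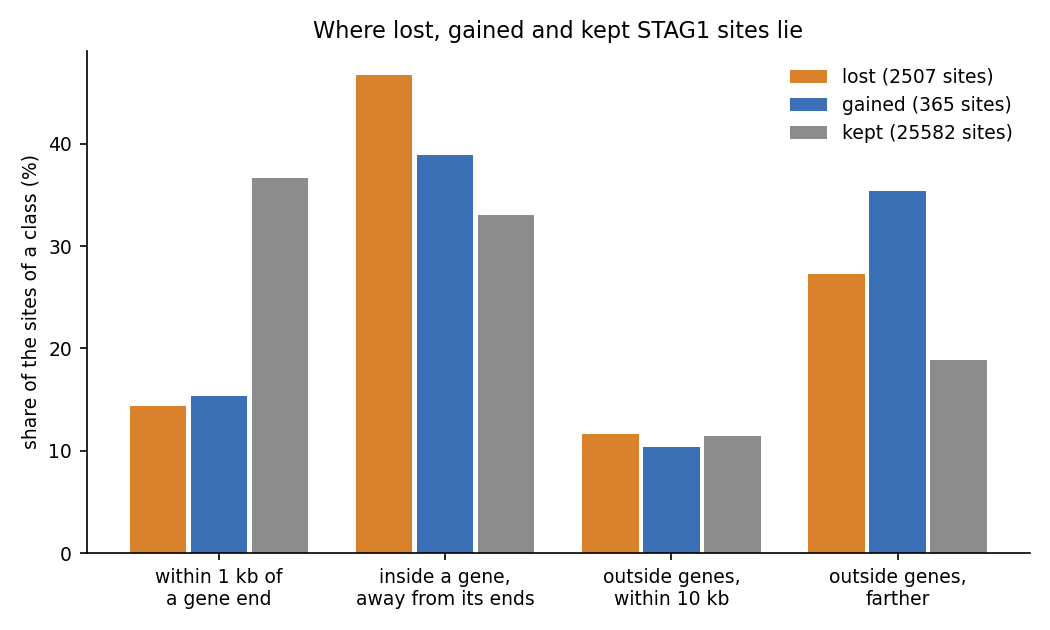
Share (%) of the 2507 lost, 365 gained and 25582 kept STAG1 sites in 4 kinds of place, relative to protein-coding genes. Kept sites are the most frequent class at gene ends, and lost sites the most frequent inside genes (46.7%, against 33.0% of kept sites).

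Losses were spread over the genome. The share lost ranged from 6.04% on chromosome 13 to 9.65% on chromosome 9 over the autosomes and X, with 9.63% on X. The Y chromosome held 8 sites of both proliferating libraries, of which 2 were lost. The median distance from a lost site to the nearest kept site was 13.1 kb, and it was 16.9 kb from a gained site. From a kept site to the nearest other kept site it was 13.7 kb, about as far as from a lost site. A run was a series of lost sites with no other site of both proliferating libraries between them, while sites that only 1 or neither of these called could lie between. Of the lost sites, 2029 (80.9%) stood alone, 192 runs held 2 and 27 runs held 3.

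The longest run held 5 lost sites over 80.4 kb of chromosome 6, from 89048068 to 89128483. It also held 3 other STAG1 sites of that kind. No protein-coding gene lay in it, and the nearest were Tpra1 at 136 kb and Mcm2, a subunit of the replicative helicase, at 149 kb. CTCF was not called at 4 of the 5, STAG2 was called in both proliferating libraries at 3, and no quiescent STAG2 library was called at any. The other 2 longest runs held 4 sites each on chromosome 8. One spanned 63.4 kb from 126743137, with 4 sites without CTCF and Tomm20, a mitochondrial import receptor, as the nearest gene at 124 kb. The other spanned 52.2 kb from 123541892, with Gas8 at 5.23 kb, and 27 other STAG1 sites lay within it.

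At lost STAG1 sites STAG2 was called in 40.4% and 34.7% of sites in quiescent libraries, against 70.5% and 60.2% in proliferating libraries. At gained sites it was 41.4% and 36.4% in quiescent libraries, against 41.1% and 30.1% in proliferating libraries. At kept sites it was 92.3% and 90.0%, against 96.9% and 92.5%. STAG2 was called less often in quiescent than in proliferating libraries at lost and at kept sites, with no overlap, and the libraries overlapped at gained sites. Over all STAG1 sites the shares were 56.7% and 52.2%, against 65.2% and 61.0%, also with no overlap. With both STAG2 libraries of each state required, 352 of the lost sites (14.0%) were lost for STAG2 too. STAG2 was in all 4 libraries at 562 (22.4%) and in none at 476 (19.0%). For kept sites these 3 shares were 1.55%, 85.3% and 1.33%. Of the gained sites, 29 (7.95%) were gained for STAG2 and 127 (34.8%) had none, against 0.192% and 1.33% of kept sites. The STAG2 lists are longer in proliferating cells as well, and the part of this in the lower quiescent calls was not tested.

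CTCF calls at lost sites did not follow the state. CTCF was called at 36.1% and 46.9% of lost sites in quiescent libraries, against 47.6% and 41.7% in proliferating libraries, and the states overlapped. At gained sites CTCF was called in 35.6% and 42.5% against 43.3% and 42.2%. At kept sites it was called in 86.5% and 91.1% against 92.4% and 89.5%. Of the sites called in both proliferating libraries, 2.96% of those with CTCF in all 4 libraries were lost, against 36.2% of those with no CTCF. Without STAG2 in either proliferating library, 34.8% were lost, against 4.80% with STAG2 in both. These shares are not matched for rank. At the ranks of lost sites, 81.7% of kept sites had STAG2 in both proliferating libraries, against 52.1% of lost sites. Kept sites of the ranks of lost sites lacked CTCF in 12.6%, against 40.1% of lost sites, with widths not matched. With windows of 100 bp around summits and over all ranks, 36.5% of lost and 4.15% of kept sites lacked CTCF.

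**Figure D4:**
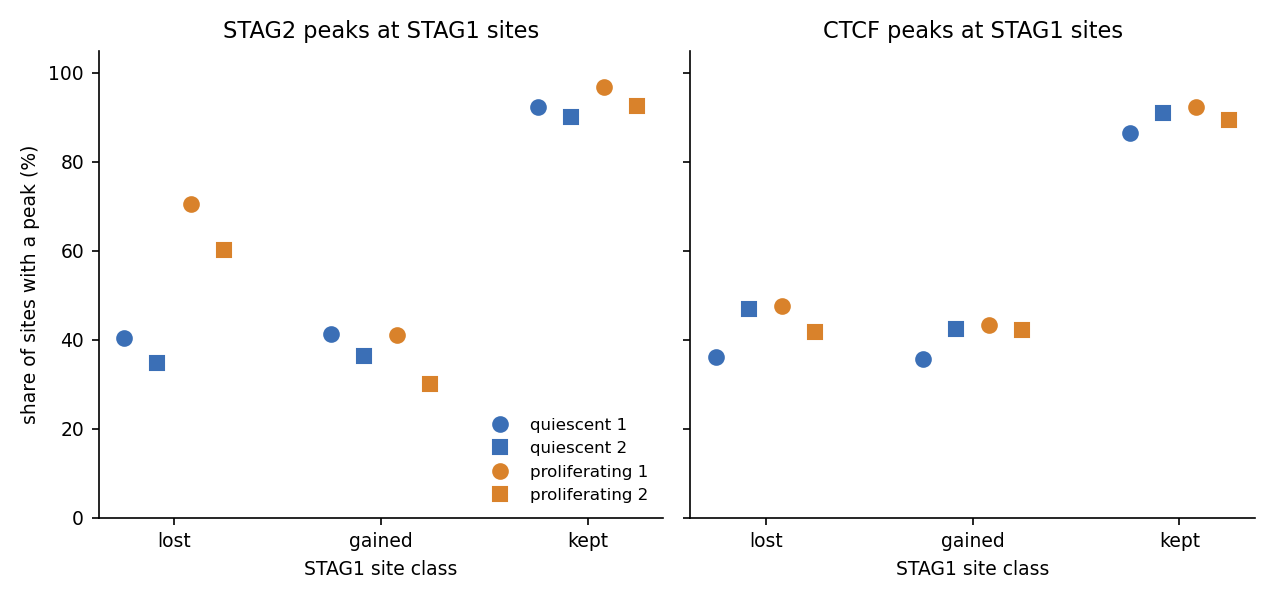
Share (%) of lost, gained and kept STAG1 sites that overlap a peak of each STAG2 library (left) and each CTCF library (right), quiescent in blue and proliferating in orange, with circles for replicate 1 and squares for replicate 2. The states separate for STAG2 at lost sites (40.4% and 34.7% against 70.5% and 60.2%), and by less at kept sites, and overlap for CTCF at lost sites.

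At gene ends STAG1 lost sites at 423 of 21900 protein-coding genes (1.93%) and gained sites at 62 (0.283%), and kept sites lay at 9747 (44.5%). A gene was occupied in a state when a site called in both libraries of that state overlapped an end, which held for 10391 genes (47.4%) in quiescent and 10756 (49.1%) in proliferating cells. Of the 423 genes, 158 (37.4%) also had a kept site, and 259 had no site of both quiescent libraries. No gene had both a lost and a gained site, which says little where only 1.93% and 0.283% of all genes had them. With lists of 35594 peaks the counts were 219 genes with lost and 292 with gained sites.

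The lost sites of highest rank lay at genes of varied function. Positions are given in mm10. The site at Plekhd1, on chromosome 12 from 80724767 to 80725266, had folds of 17.0 and 9.48 in proliferating libraries and was not called in quiescent ones. The site at Cstad had folds of 8.98 and 17.5 and that at Porcn, the acyltransferase of Wnt proteins, 9.48 and 13.5. Arf3, a small GTPase of the Golgi, had 12.9 and 8.27, and Pla1a, a phospholipase, 12.5 and 7.93. At the Plod1 start, a collagen lysyl hydroxylase, the folds were 7.98 and 13.0. Proliferating replicate 1 had the higher fold at Plekhd1, Arf3 and Pla1a, and replicate 2 at Cstad, Porcn and Plod1.

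The next were a site at Shank1, a scaffold of excitatory synapses that shares it with 1700008O03Rik (7.48 and 14.5), and Csf2 (8.98 and 8.98). Urah, an enzyme of urate breakdown, had 6.13 and 13.7, and Mri1, an enzyme of methionine salvage, had 6.04 and 13.8. Ehmt2, the histone H3K9 methyltransferase G9a, shared its site with Slc44a4 (7.48 and 9.48), and Aff1, of the super elongation complex, had 7.93 and 8.68. Of these 12 sites, 9 carried STAG2 in both quiescent STAG2 libraries, while no quiescent STAG1 library called them. Of all lost sites, those STAG2 libraries called 40.4% and 34.7%, so these 12 do not stand for the class. All 12 were lost with lists of 35594 peaks and with only peaks of a −log10 q of at least 5, and 3 with lists of 20000.

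The gained sites of highest rank had lower folds. Gpnmb, a membrane glycoprotein of melanocytes and macrophages, had 7.49 in each quiescent library on chromosome 6 from 49057103 to 49057492. Dmkn, a secreted protein of the differentiating epidermis, had 6.49 and 7.99, and Suv39h2, another H3K9 methyltransferase, 6.49 and 7.49. Lrp2bp had 6.33 and 8.27, Flrt2, an adhesion receptor, 5.49 and 8.48, and Tmsb4x, which sequesters actin, 5.49 and 7.99. Vstm2a had 8.48 and 4.99, Marchf10, a ubiquitin ligase, 5.49 and 7.49, and Gal3st1, which makes sulfatide, 6.49 and 5.99. Rln3, a relaxin hormone, had 6.49 and 5.99, Gpc4, a glypican, 7.98 and 4.99, and Astn2, an astrotactin, 4.34 and 9.48. All 12 were gained with lists of 35594 peaks, 9 with a −log10 q of at least 5 and none with lists of 20000.

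**Figure D5:**
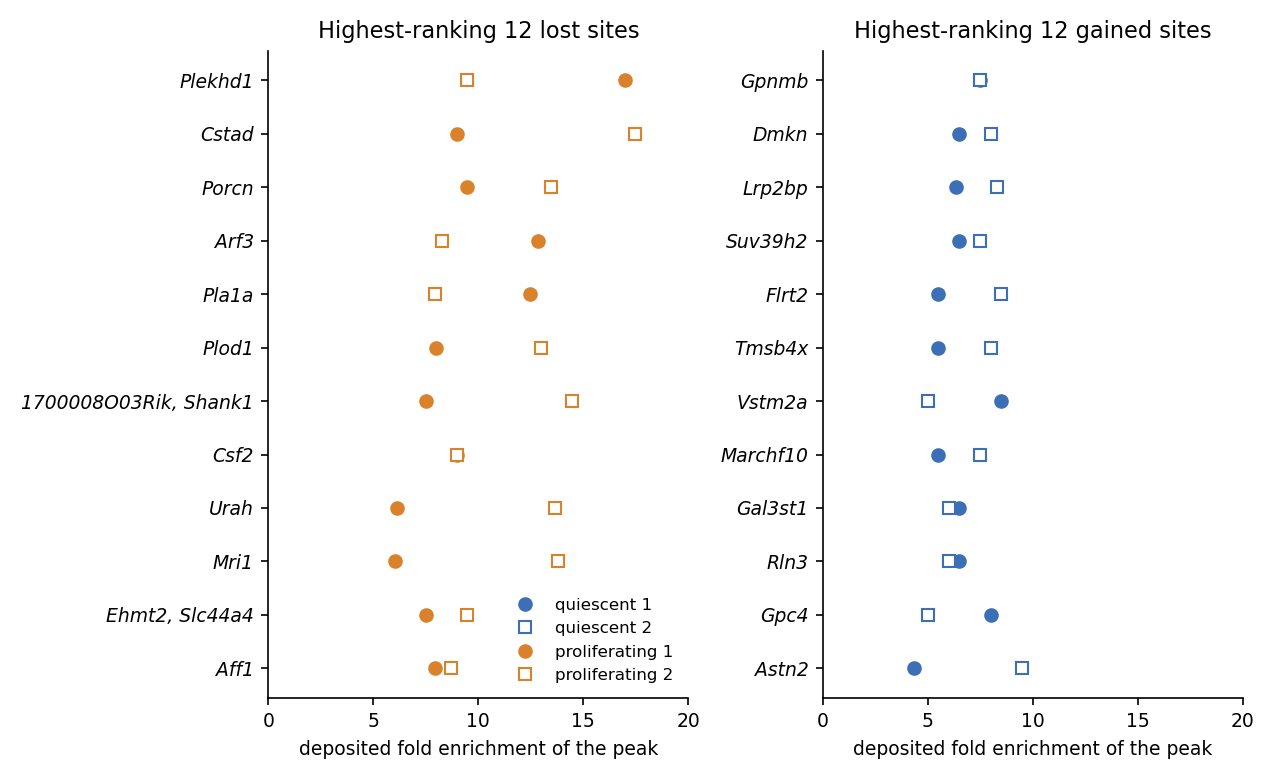
Deposited fold enrichment of the STAG1 peaks at the 12 lost and 12 gained sites of highest rank at gene ends, by gene, with circles for replicate 1 and open squares for replicate 2, quiescent in blue and proliferating in orange. The folds of the lost sites lie between 6.04 and 17.5 and those of the gained sites between 4.34 and 9.48.

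The kept sites of highest rank had folds several times as high. At Mycn, a MYC family transcription factor, the folds were 83.8 and 103 in quiescent cells and 76.3 and 81.3 in proliferating cells. At Ivd, an enzyme of leucine breakdown, they were 83.7 and 104, against 85.3 and 75.4. At Scnn1g they were 78.4 and 96.8, against 79.8 and 81.8, and at Cdkn2aipnl, 86.5 and 87.0 against 72.7 and 93.9. Lratd1 had 80.8 and 91.3 against 71.9 and 89.3, and Garem1, an adaptor of EGF receptor signalling, had 89.3 and 90.3 against 73.9 and 71.4. All 6 carried STAG2 and CTCF in all 4 libraries.

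The genes of cohesin, its regulators and CTCF had kept sites about as often as other genes. Of 22 genes, 11 had one (50%), against 44.5% of all protein-coding genes. In quiescent cells 12 (54.5%) were occupied and in proliferating cells 11 (50%), against 47.4% and 49.1% of all genes. None had a lost or gained site, which 1.93% and 0.283% of all genes had. Among the ring subunits, Smc3 had folds of 28.0 and 19.7 in quiescent cells against 25.4 and 36.6 in proliferating cells, and Smc1a had 4.67 and 5.99 against 5.99 and 9.98. Stag2 had 32.0 and 24.0 against 25.3 and 32.3, and no site lay at Stag1 or Rad21. The regulators Pds5a and Pds5b, which help release and maintain cohesin, had kept sites of 32.8 and 29.4 against 42.4 and 15.0, and of 38.5 and 33.0 against 35.8 and 37.3. Mau2 of the loader, Cdca5 (sororin), the acetyltransferases Esco1 and Esco2, the deacetylase Hdac8 and Ctcf had kept sites too. The releaser Wapl had 4.50 and 6.003 in quiescent cells and 6.20 in proliferating replicate 2, and was not called in proliferating replicate 1. Ctcfl, the testis paralogue of CTCF, was called in quiescent replicate 1 and proliferating replicate 2. None was found at Smc1b, Rad21l, Rec8, Stag3, Nipbl, Sgo1 or Espl1.

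Cell cycle genes that DREAM represses had lost sites at 4 G2/M and 3 G1/S genes and no gained site, which 0.283% of all genes had. Of 49 G2/M genes, 29 (59.2%) were occupied in quiescent and 34 (69.4%) in proliferating cells, against 47.4% and 49.1% of all genes. A lost site lay at 4 (8.16%), against 1.93% of all genes. At Ccnb2 the folds in proliferating cells were 6.90 and 10.3, at Top2a 4.05 and 5.22, at Tpx2, a spindle assembly factor, 4.00 and 5.00, and at Plk1 3.00 and 4.95, with no call in quiescent cells. None of the 4 had a site of both quiescent libraries at an end. STAG2 was called in both quiescent libraries at Ccnb2 and Plk1, in 1 of them at Top2a and in none at Tpx2. Of the 4, only Ccnb2 was still lost with lists of 35594 peaks or with peaks of a −log10 q of at least 5. Of the whole list, quiescent libraries had peaks at 30 and 32 genes (61.2% and 65.3%), against 34 and 43 (69.4% and 87.8%) in proliferating ones. Over all genes the shares were 50.6% and 51.8%, against 49.6% and 59.7%, so proliferating replicate 2 was the highest there too.

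Of 55 G1/S genes, 36 (65.5%) were occupied in quiescent and 37 (67.3%) in proliferating cells, and 3 (5.45%) had a lost site. Over all genes these shares were 47.4%, 49.1% and 1.93%. Gmnn, the inhibitor of replication licensing, had folds of 7.86 and 5.67 in proliferating cells, Pola2, a subunit of DNA polymerase alpha, 7.76 and 5.49, and Cdt1, the licensing factor that geminin binds, 4.50 and 3.63. Each of the 3 also had another site, called in both quiescent libraries. Gmnn and Pola2 were still lost with lists of 35594 peaks or a −log10 q of at least 5, and Cdt1 was not. Of 13 subunits of DREAM and MuvB, 10 (76.9%) were occupied in quiescent and 11 (84.6%) in proliferating cells, and none had a lost site.

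Over all genes, 47.4% were occupied in quiescent and 49.1% in proliferating cells, and 1.93% had a lost site. In the other lists 5 genes had lost sites. Of 30 urothelial differentiation genes, 22 were occupied in quiescent and 24 in proliferating cells, and Ivl, the cornified envelope protein involucrin, had a lost site (3.33% of the list, with folds of 4.99 in each proliferating library). Of 18 basal genes, 9 and 11 were occupied, and the keratins Krt6a (4.67 and 9.34) and Krt14 (4.49 and 6.99) had lost sites, 11.1% of the list. Of 28 PPAR gamma targets, 12 and 15 were occupied, and Pdk4, a kinase that restrains glucose oxidation, had a lost site (3.57% of the list, with folds of 4.99 and 3.49). Of 39 Hox genes, 20 and 21 were occupied, and Hoxb4 had a lost site (2.56% of the list, with folds of 2.83 and 8.39). Krt6a was still lost with lists of 35594 peaks or a −log10 q of at least 5, and Krt14, Ivl, Pdk4 and Hoxb4 were not. Of 35 genes of the EGF receptor and MAPK response, 34 and 35 were occupied (97.1% and 100%). Of 25 CDK inhibitors and growth arrest genes, 22 (88%) were occupied in each state. Neither of these 2 lists had a lost or gained site. None of the lists of this paragraph had a gained site, beside 0.283% of all genes, a share that lists this short cannot tell from 0.

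The promoter choice of clustered protocadherins depends on CTCF and cohesin. Of 57 such genes, 21 (36.8%) were occupied in quiescent and 8 (14.0%) in proliferating cells, against 47.4% and 49.1% of all genes. By library the counts were 21 and 22 in quiescent cells, against 10 and 22 in proliferating cells, so the difference rests on proliferating replicate 1. A single site at the 3' end that 21 genes of the gamma cluster share carried it. It had folds of 4.34 and 4.00 in quiescent cells and 6.002 in proliferating replicate 2, and no call in proliferating replicate 1.

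Marker genes of other cell types were counted as well. Peaks mark binding and not expression, so the label was not checked by these lists. STAG1 lay at ends of 3 of 12 immune markers in each state, 6 of 12 fibroblast markers in each state and 5 of 10 neuron markers in quiescent against 6 of 10 in proliferating cells. The shares of all genes were 47.4% in quiescent and 49.1% in proliferating cells. Of 1110 olfactory receptor genes, which are silent in most tissues, 7 were occupied in quiescent and 9 in proliferating cells.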

How the data were processed

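Peak lists of 12 ChIP-seq libraries of NU1 cells were used, 4 of them STAG1. Per the submitters' processing notes, the build was mm10 and MACS2, BWA, Picard, HOMER and bcl2fastq were used, with versions not given in the sources used here. Each library has its own list, which the authors deposited without pooling replicates. The authors' fold enrichment is a ratio over the control, and the deposited −log10 p and −log10 q values come from the caller. The deposited score column repeats the q-value and was not used, and the deposited summit offset gave summit positions. The control sample, titled input and labelled IgG, was not analysed here.

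The site, class and gene end rules are those of the report. Genes are the 21900 protein-coding genes of a RefSeq table (GRCm38.p6, the build of mm10), whose strands come from promoter entries for 17492 of them (79.9%). That is under 80%, so motif shares describe the entries only, and a check of motifs over gene sets is void and was not tested. Analyses used Python 3.11.15, numpy 2.4.6 and pandas 2.3.3, and were tested on simulated data. States were compared by exact two-sided permutation. Members and gene lists were chosen with earlier results of these data known. Named genes are the 12 lost, 12 gained and 6 kept sites of highest mean rank at gene ends, up to 6 listed genes a class, the cohesin genes and the 3 longest runs of lost sites. Other settings are in the closing section. Replicate numbers were not taken to pair the libraries, and whether libraries of the same number shared a culture is not stated.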

Additional observations from a re-analysis of the deposited data

Results flagged for a closer look

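The share of peaks inside genes differed in direction between STAG1 and CTCF. For STAG1 it was 36.1% and 35.8% in quiescent libraries, against 37.3% and 39.6% in proliferating libraries, a difference of -2.49 percentage points. For CTCF it was 44.3% ± 1.43 in quiescent and 42.7% ± 0.291 in proliferating libraries (SD, n = 2 each), a difference of 1.61 points. The STAG1 change less the CTCF change was -4.10 points (exact permutation p = 0.0556, two-sided), the smallest p that 36 arrangements can give, so it does not pass 0.05. It had the lowest p of all measures in which STAG1 was set beside STAG2 or CTCF, and was picked for that. All STAG1 libraries of quiescent cells lay below both proliferating ones, and all CTCF libraries of quiescent cells above both proliferating ones. The CTCF lists differed in length too, with 51835 and 71757 peaks in quiescent cells against 57528 and 55168 in proliferating cells, and the part of this was not tested. The STAG1 difference itself turned to 0.33 points with lists of 20000 peaks. Its cause was not tested.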

How the results depend on the processing

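No STAG1 difference between the states passed a test under any setting, and 6 arrangements of 4 libraries cannot. Replicate numbers are shared by the groups. Over 25582 kept sites, deviations from the state mean correlated at -0.093 between quiescent replicate 1 and proliferating replicate 1. This gave no sign of pairing, but it cannot show whether libraries shared cultures or batches. With the replicate block the peak number difference stayed at -0.29, with an exact permutation p of 0.5, and no call changed. With lists of 35594 peaks the spacing difference turned to -15 bp. With lists of 20000 the gene end difference turned to -0.45 and the gene body difference to 0.33 points. The width difference was -20 bp with a −log10 q of at least 5, -43 bp with lists of 35594 and -55.5 bp with lists of 20000. With a library left out, it ranged from -5 to 1 bp, the peak number difference from -0.48 to -0.10, the spacing difference from 1505 to 6696 bp, the gene body difference from -3.62 to -1.37 points and the CTCF share difference from 1.56 to 15.3 points, and the STAG1 change less the STAG2 change ranged from -0.13 to 0.25 in log2 peak number and from -3336 to 1855 bp in spacing. Without proliferating replicate 1 the width difference was 1 bp and the last 2 values were -0.13 and 1855 bp; width was also 1 bp without quiescent replicate 1. Without STAG2 quiescent replicate 2 the peak number and spacing values were -0.02 and 270.5 bp.

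With lists of 35594 peaks, lost sites numbered 1320 (4.78% of the proliferating sites), gained sites 920, and genes with them 219 and 292. With 20000 peaks, lost sites numbered 472 (3.02%) and kept sites 13971. Summit windows of 100 bp gave 738 gained sites, and windows at gene starts alone, for genes with an entry, gave 38 genes with gained sites. With a library left out, which loosens the class rules, lost sites ranged from 4179 to 15632, gained sites from 1038 to 2948, the lost share from 13.1% to 31.3%, genes with lost sites from 787 to 2581 and genes with gained sites from 120 to 820.

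With lists of 35594 peaks, STAG2 was called at 59.1% of gained sites in quiescent and 57.2% in proliferating libraries, and CTCF at 47.1% and 54.5%; CTCF at lost sites was 49.2% in proliferating libraries. With a −log10 q of at least 5, quiescent STAG2 was called at 44.3% of lost and 46.0% of gained sites, and proliferating CTCF at 46.4% of gained sites. The shares of lost sites at gene ends and without CTCF were tried at these settings after seeing the data. With 20000 peaks, 28.6% of lost sites and 30.9% of kept sites lay at gene ends, and 10.2% of lost sites lacked CTCF. The causes of these changes were not tested.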
